A study of Homo sapiens with 6 samples.

Results

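Zinc finger genes with a numbered ZNF symbol that lie outside chromosome 19 were followed in HCT116 cells, a human colorectal carcinoma cell line, with and without overexpression of the RNA-binding protein RBM47. Members were the protein-coding genes of the count table with a ZNF symbol, a chromosome other than 19 and a mean of at least 10 counts over the 6 libraries. This gave 218 members among 28491 genes, out of 235 such genes before the count rule, and all 218 passed the filter on low counts. Just inside the rule lay ZNF423, ZNF648 and ZNF804A with mean counts of 10.5, 13.3 and 14.3, and just outside lay ZNF410, ZNF853 and ZNF474 with 8, 4.33 and 3.33. Poly(A) RNA was sequenced from 3 libraries of cells given a control plasmid (NC) and 3 given an RBM47 plasmid (RBM47-OE), both with Lipofectamine 2000, harvested after 48 h. Both groups were the same line under the same antibiotics and serum, and the plasmid was the only stated difference. The sample labels name pcDNA3.1-3xFlag-RBM47 in DMEM, whereas the study's methods name another vector and medium, so the backbone stays uncertain. No source states that the libraries came from separate cultures, and p-values measure the spread between these libraries, which may be technical.

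Most ZNF proteins are C2H2 zinc finger proteins, in which a cysteine pair and a histidine pair hold a zinc ion and each finger reads a few bases of DNA. Many carry a KRAB box, which recruits TRIM28 and through it the methyltransferase SETDB1, HP1 proteins and histone deacetylases to silence transposable elements. Others carry a SCAN domain for pairing with each other, or work outside DNA binding, in ribosome quality control, splicing and mitosis. Many of the KRAB genes of this family lie in large clusters on chromosome 19, while those studied here are spread over the other chromosomes.

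The libraries held 26792409 to 35477983 gene counts each. RBM47 itself was at 1.91, 2.33 and 1.94 FPKM (fragments scaled to transcript length and library size) in NC and at 131.3, 130.41 and 127.04 FPKM in RBM47-OE, which matched the labels. Of 8 colorectal epithelial markers, 6 were at 4.06 FPKM or more in every library, while VIL1 and CDX1 stayed at or below 0.09 and 0.05 FPKM. Of 8 markers of blood, endothelium, fibroblasts and liver, 5 were in the FPKM table, their summed level ran from 1.54 to 1.94 FPKM in NC and from 1.49 to 1.84 in RBM47-OE, and COL1A1 held most of it. Libraries also differed in how levels followed the GC content of exons: across 16233 genes the log2 fold change and exonic GC content had a Spearman correlation of -0.63. After a GC offset, a smooth correction of each library for exonic GC, it was -0.04. Results are therefore given with and without this offset.

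More of these genes rose than fell after RBM47 overexpression, by small amounts. With edgeR's quasi-likelihood test and an adjusted p under 0.05, 52 of 218 members (23.9%) were higher in RBM47-OE, where 19.1% of the 16260 genes tested were, and 19 members (8.72%) were lower, where 16.9% were. Members are protein-coding by rule, and of the 13295 protein-coding genes tested 22.6% were higher and 19.4% lower. The share of members called higher was thus near that of protein-coding genes, while the share called lower was smaller. The median log2 fold change of the members was 0.14, beside 0.00 over all genes tested and 0.00 over the protein-coding ones. Among the called members the median size of the change was 0.48 for those that rose and 0.34 for those that fell on the log2 scale, and 39 of the 52 and all 19 changed by less than 1.5-fold. At the thresholds of the study (unadjusted p under 0.01 and a change over 1.5-fold) 11 members (5.05%) were up DEGs, where 1.51% of all genes tested were. No member was a down DEG at these thresholds, where 0.873% of all genes tested were, and edgeR at an unadjusted p under 0.05 with the same fold and DESeq2 likewise gave 0. In bulk RNA a change shared by all cells and one confined to a part of them cannot be told apart. In 59 members (27.1%) every RBM47-OE library lay above every NC library in CPM (counts scaled to library size with TMM factors), where 23.2% of all genes tested did so, and in 36 (16.5%) every one lay below, where 23.4% did. With the GC offset 24 members (11%) were higher, where 6.0% of genes tested were, and 6 (2.75%) were lower, where 8.46% were. With the offset the median was 0.08, and 18 of the 52 and 3 of the 19 were called again in the same direction. Without RBM47-OE replicate 2 the count of higher members without the offset fell to 32 and that of up DEGs to 5, without RBM47-OE replicate 1 the latter was 18, and without NC replicate 2 the lower members numbered 12. With the offset, leaving out RBM47-OE replicate 2 gave 15 higher members and leaving out each NC library gave 11 to 14, with 2 to 5 lower.

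**Figure D1:**
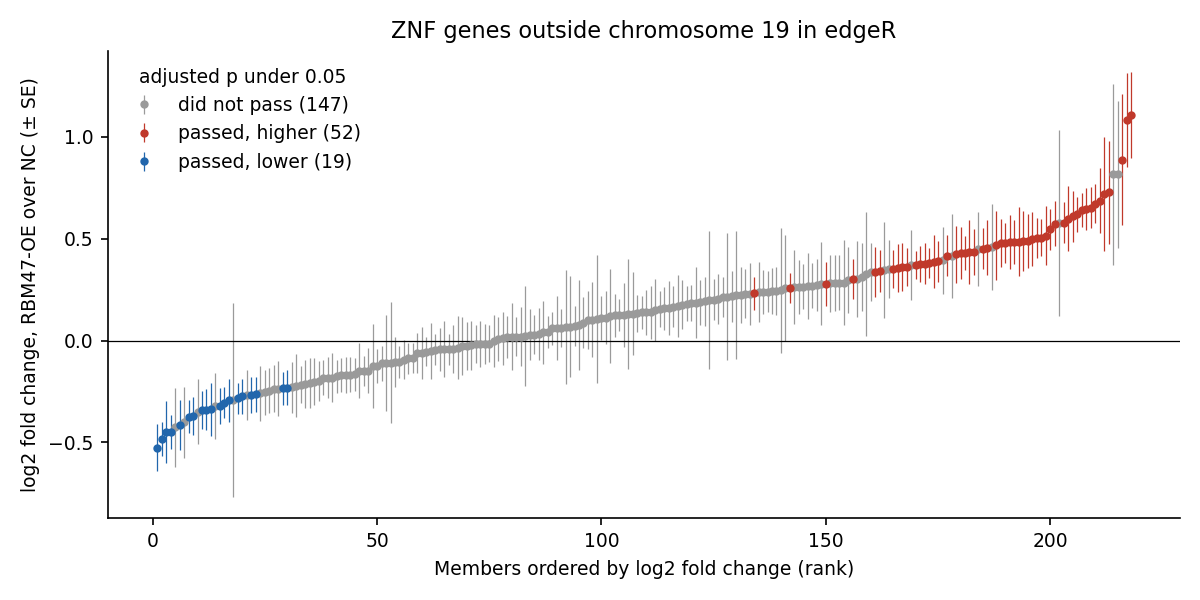
Log2 fold change (RBM47-OE over NC, y axis, bars ± SE from edgeR) of the 218 members ordered by that value (x axis, rank), coloured by adjusted p under 0.05. The 52 red genes and the 19 blue genes sit at the 2 ends, between 1.11 and -0.53, with 147 grey genes that did not pass, some of them with wide errors at low counts.

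The direction of a member followed the base composition of its exons. The 52 members called higher had exonic GC contents between 34.6% and 49.1%, with a median of 41.2%, while the 19 called lower ran from 48.4% to 65.9%, with a median of 61.0%. In the quartile of members with the lowest exonic GC (32.2% to 41.6%, n = 55) 26 were higher and 0 lower, and in the next quartile (41.6% to 45.9%, n = 54) 22 were higher and 0 lower. The third quartile (46.1% to 53.6%, n = 54) held 4 higher and 2 lower, and the highest (54.3% to 69.3%, n = 55) 0 higher and 17 lower. For the empty cells of these counts, edgeR at an unadjusted p under 0.05 gave 0 lower, 1 lower and 0 higher members, and DESeq2 gave 0 in each. The median log2 fold changes of the quartiles were 0.35, 0.31, 0.04 and -0.21. Across the 218 members the Spearman correlation of log2 fold change with exonic GC was -0.73, with the GC of coding sequence -0.69 (n = 217), with that of the 3′ UTR -0.68 (n = 217) and with that of the 300 bases around the RefSeq transcription start -0.19 (n = 179). These genes share the same 6 libraries, so the correlations are descriptions without a test. With the GC offset the first of these was -0.10, and the quartiles held 7, 7, 9 and 1 higher and 3, 0, 1 and 2 lower members. In the quartile with 0 lower there, edgeR with the offset at an unadjusted p under 0.05 gave 2, and the median was 0.18.

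**Figure D2:**
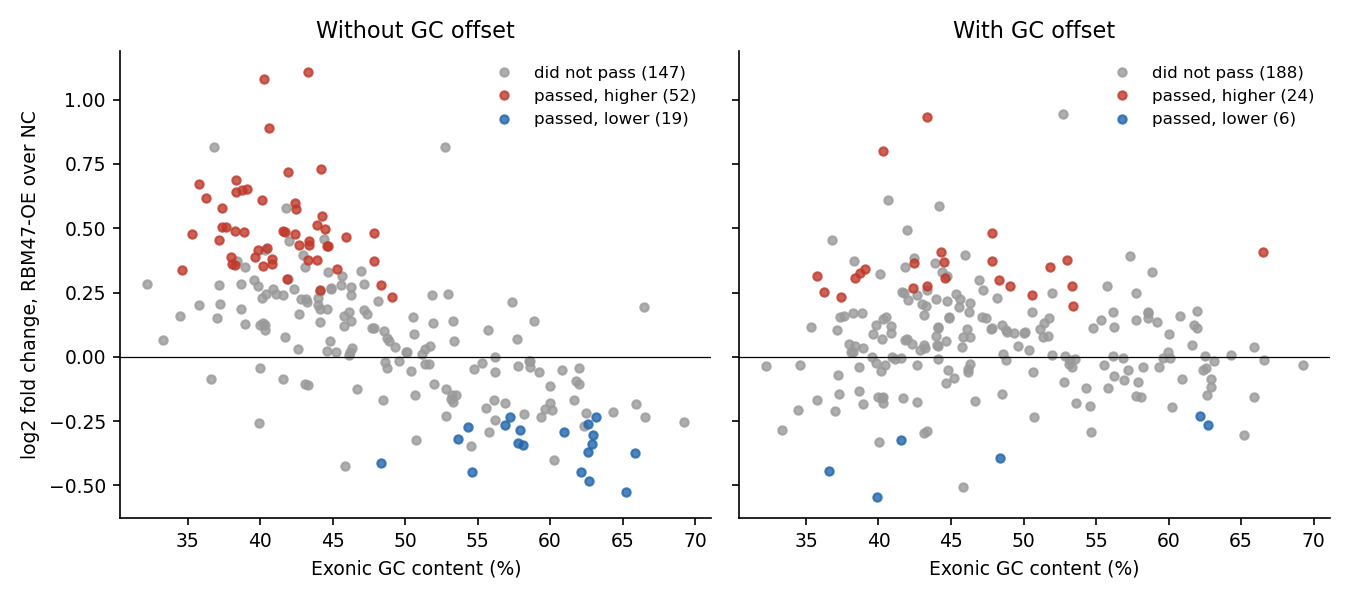
Log2 fold change (RBM47-OE over NC, y axis) against exonic GC content in percent (x axis) for the 218 members, without (left) and with (right) the GC offset, coloured by adjusted p under 0.05 in that fit. On the left the 52 higher members lie at 49.1% GC or less and the 19 lower ones at 48.4% or more, and on the right 24 and 6 are spread over the range.

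The members were set beside other genes of the same composition. Of the 3304 other genes tested whose exonic GC lay in the range of the first quartile, 57.8% were called higher and the median log2 fold change was 0.34, beside 47.3% and 0.35 for the members. In the second range 29.4% of 2859 other genes were called higher with a median of 0.17, beside 40.7% and 0.31. In the third, 16.2% of 4102 other genes were called lower with a median of -0.06, beside 3.70% of members and 0.04. In the fourth, 35.0% of 5158 other genes were called lower with a median of -0.22, beside 30.9% and -0.21. No test was made of these side-by-side values.

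The trend was not equally strong in each library. Measured against the NC mean, the median log2 difference of the lowest quartile was 0.11, 0.47 and 0.39 in RBM47-OE replicates 1, 2 and 3, and that of the highest quartile was -0.14, -0.18 and -0.28. Each NC library, set against the other NC libraries, had quartile medians between -0.03 and 0.04. Thus all 3 RBM47-OE libraries stood outside the NC range at both ends, and replicate 1 was nearest to it. With the GC offset the lowest quartile gave -0.05, 0.14 and 0.02 and the highest -0.03, 0.03 and -0.03. Whether composition itself or another property that goes with it moved these genes was not tested.

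**Figure D3:**
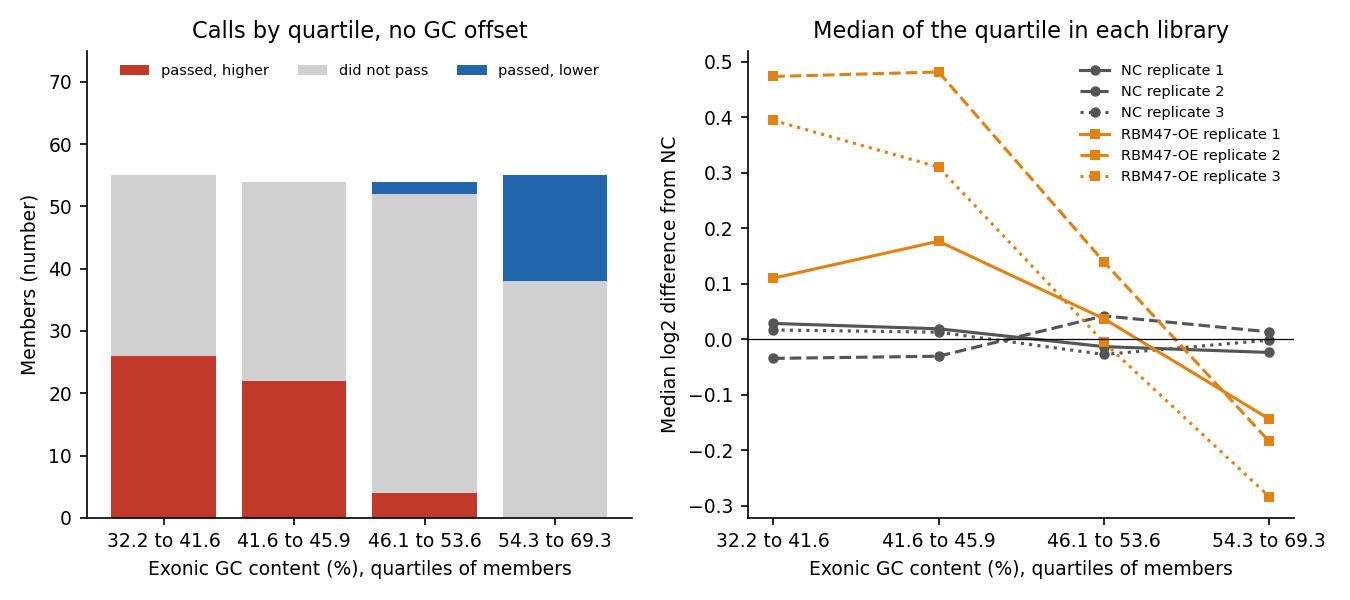
Left, number of members (y axis) called higher, called lower or not called, without the GC offset, in quartiles of exonic GC content (x axis, percent). Right, median log2 difference from NC of each quartile in each library, with NC libraries within -0.03 to 0.04 and RBM47-OE libraries falling from 0.11 to 0.47 at the left to -0.28 to -0.14 at the right.

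The difference in composition can be read in a stretch that most of these proteins share, the linker of threonine, glycine, glutamate, lysine and proline that joins neighbouring fingers. The linker occurred 175 times in 35 of the 52 members called higher and 18 times in 7 of the 19 called lower, in the coding sequence of the canonical GENCODE transcript. Of the third codon bases of these linkers 40.5% were G or C in the first set (354 of 875) and 76.7% in the second (69 of 90). In the 98 uncalled members with the linker (458 copies) the share was 46.4%. By member the shares overlapped, from 0% to 60% in the first set and from 33.3% to 100% in the second. Windows are printed because the same amino acids are spelled in different bases. Each is the first copy whose window is unbroken in the genome (for ZNF142 the second copy, for the others the first). They run 5′ to 3′ on the coding strand with the 15 linker bases in capitals. The windows come from 4 members called higher and 4 called lower, which are not in every case those with the largest changes. ZNF572 has the linker and rose more than ZNF19, but its window is not printed. ZNF142 and ZNF316 had log2 fold changes of -0.27 and -0.26, beside a median size of 0.34 among the 19 lower members. In GRCh38 the windows lie within coding exons at chr9:66919181-66919210 (plus strand, ZNF658), chr16:71475974-71476003 (minus, ZNF19), chr3:44721511-44721540 (plus, ZNF502), chr10:37952802-37952831 (minus, ZNF25), chr11:123726663-123726692 (minus, ZNF202), chr16:31064118-31064147 (minus, ZNF668), chr2:218642070-218642099 (minus, ZNF142) and chr7:6652776-6652805 (plus, ZNF316).
ZNF658, higher: attcacACAGGTGAAAAACCCtatgaatgt
ZNF19, higher: atccacACTGGGGAGAAACCTtttgagtgt
ZNF502, higher: attcacACTGGAGAGAAACCTtataaatgc
ZNF25, higher: acacacACAGGGGAGAAACCTtttgaatgt
ZNF202, lower: actcacACAGGAGAGAAACCCtataaatgt
ZNF668, lower: agccacACGGGGGAGAAGCCCtttccgtgc
ZNF142, lower: atccacACTGGGGAAAAGCCTtaccactgt
ZNF316, lower: acgcacACCGGCGAGAAGCCCttcccgtgc
The GC content of these 30-base windows was 36.7%, 46.7%, 36.7% and 43.3% in the members that rose and 40.0%, 66.7%, 50.0% and 70.0% in those that fell. ZNF202, whose window is as poor in GC as those of the risers, also had the lowest exonic GC (48.4%) of the 19 lower members.

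Among called members whose groups did not overlap, the 4 largest rises were in members below 1 FPKM. ZNF658, a KRAB protein known for repressing zinc transporter genes when zinc is plentiful, was at 0.29, 0.29 and 0.26 FPKM in NC and 0.49, 0.69 and 0.74 FPKM in RBM47-OE (log2 fold change 1.11 ± 0.21 (SE), adjusted p = 0.000342). All 3 RBM47-OE libraries were above all 3 NC libraries, and the call held with the GC offset (0.93 ± 0.20, adjusted p = 0.00357). Of the 100-base pieces of its transcript 52.8% also occur in other transcripts, ZNF658B among them, so its reads could have been lost or split between copies. ZNF572, a gene with no pieces shared, was at 0.33, 0.4 and 0.27 FPKM in NC and 0.65, 0.79 and 0.83 FPKM in RBM47-OE (log2 fold change 1.08 ± 0.23 (SE), adjusted p = 0.000882). Its groups did not overlap either, and it was the other member that passed the study thresholds with the offset (0.80 ± 0.22, adjusted p = 0.019). ZNF19, a KRAB protein, was at 0.12, 0.09 and 0.18 FPKM in NC and 0.19, 0.28 and 0.22 FPKM in RBM47-OE (log2 fold change 0.73 ± 0.25 (SE), adjusted p = 0.0256). ZNF502 was at 0.21, 0.29 and 0.35 FPKM in NC and 0.43, 0.66 and 0.39 FPKM in RBM47-OE (log2 fold change 0.72 ± 0.28 (SE), adjusted p = 0.0449). Both rested on 88 counts or fewer in every library, and neither passed with the offset (adjusted p = 0.122 and 0.258). ZNF25, a KRAB protein encoded beside ZNF33A and ZNF37A, was at 0.77, 0.72 and 0.76 FPKM in NC and 1.48, 1.17 and 1.14 FPKM in RBM47-OE (log2 fold change 0.69 ± 0.16 (SE), adjusted p = 0.00164). Replicate 1 was the highest library here, and the gene did not pass with the offset (0.37 ± 0.17, adjusted p = 0.149). ZNF396 was also called higher with a log2 fold change of 0.89, but its groups overlapped. It did not pass with the offset (0.61 ± 0.32, adjusted p = 0.216).

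Others rose from levels above 1 FPKM. ZNF654 was at 1.56, 1.61 and 1.69 FPKM in NC and 2.6, 2.81 and 2.72 FPKM in RBM47-OE (log2 fold change 0.67 ± 0.10 (SE), adjusted p = 3.95e-05). ZNF292, a large protein with 14 fingers by the pattern used and mutated in neurodevelopmental disorders, was at 2.35, 1.94 and 1.89 FPKM in NC and 2.77, 4.13 and 3.29 FPKM in RBM47-OE (log2 fold change 0.65 ± 0.10 (SE), adjusted p = 8e-05). ZNF277 was at 2.92, 2.78 and 3.18 FPKM in NC and 4.12, 5.5 and 5.09 FPKM in RBM47-OE (log2 fold change 0.65 ± 0.10 (SE), adjusted p = 6.74e-05). In these 3 members every RBM47-OE library was above every NC library, and each passed with the GC offset at log2 fold changes of 0.31, 0.33 and 0.34 (adjusted p = 0.0224, 0.0119 and 0.00749). ZNF664, among the 5 members of highest level, was at 20.8, 21.4 and 20.64 FPKM in NC and 26.38, 29.61 and 29.58 FPKM in RBM47-OE (log2 fold change 0.37 ± 0.07 (SE), adjusted p = 0.000276). With an exonic GC content of 47.8% its change was the same with the offset (0.37 ± 0.06, adjusted p = 0.000168).

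**Figure D4:**
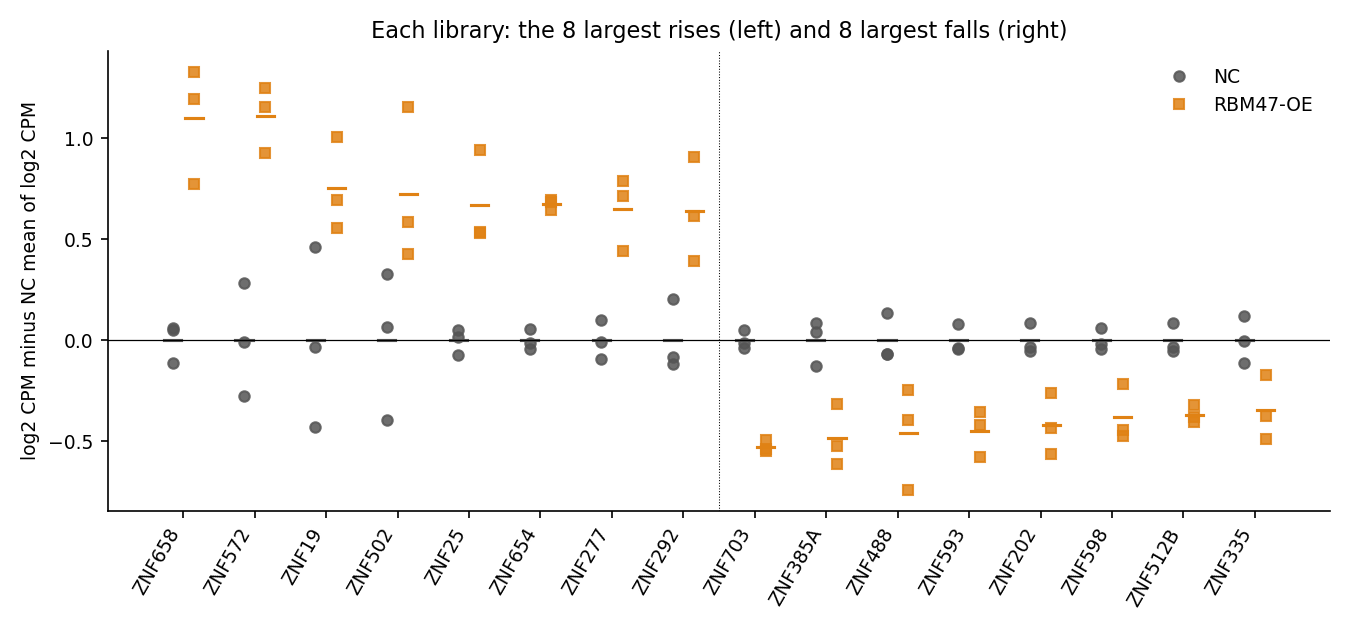
Log2 CPM of each library minus the mean of the NC libraries (y axis) for the 8 called members with the largest rise and the 8 with the largest fall among those whose groups did not overlap (x axis); circles are NC, squares RBM47-OE, bars the group means. The squares lie above all circles of the gene on the left and below all of them on the right, with falls of at most -0.53 and wider scatter in ZNF19, ZNF502 and ZNF572.

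The falls were smaller, and 11 of the 19 were in the quartile of members with the highest FPKM. ZNF703, a transcriptional repressor of the NET family that is amplified in luminal breast cancer, was at 2.82, 2.8 and 2.98 FPKM in NC and 2.01, 2.13 and 2.13 FPKM in RBM47-OE (log2 fold change -0.53 ± 0.12 (SE), adjusted p = 0.00115). All 3 RBM47-OE libraries lay below the lowest NC library, but with the GC offset the change did not pass (-0.31 ± 0.11, adjusted p = 0.0639). Its paralogue ZNF503 was at 26.77, 27.76 and 29.37 FPKM in NC and 29.13, 25.93 and 30.45 FPKM in RBM47-OE, with overlapping groups (log2 fold change -0.04 ± 0.08 (SE), adjusted p = 0.707). ZNF385A, an RNA-binding protein and cofactor of p53, was at 16.93, 19.18 and 19.75 FPKM in NC and 15.34, 13.91 and 12.72 FPKM in RBM47-OE (log2 fold change -0.48 ± 0.08 (SE), adjusted p = 0.000153). It passed with the offset too (-0.27 ± 0.06, adjusted p = 0.00587). ZNF593, a factor of large ribosomal subunit assembly and the member of highest level, was at 56.47, 52.48 and 52.1 FPKM in NC and 43.1, 43.21 and 37.69 FPKM in RBM47-OE (log2 fold change -0.45 ± 0.08 (SE), adjusted p = 0.00028). It passed with the offset (-0.23 ± 0.07, adjusted p = 0.0224). All of its exon bases are also exon of an antisense gene in the annotation, so its reads could not be assigned without strand, and the strand setting of the counting is not given in the sources used here. ZNF202, a SCAN protein that represses genes of lipid metabolism, was at 1.78, 1.76 and 1.94 FPKM in NC and 1.27, 1.64 and 1.42 FPKM in RBM47-OE (log2 fold change -0.41 ± 0.12 (SE), adjusted p = 0.00939). With the offset the change was of nearly the same size (-0.40 ± 0.11, adjusted p = 0.0204). These 3 were the members called lower in both fits.

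ZNF598, the ubiquitin ligase that marks collided ribosomes, was at 11.38, 10.87 and 10.66 FPKM in NC and 9.69, 8.67 and 8.28 FPKM in RBM47-OE (log2 fold change -0.37 ± 0.08 (SE), adjusted p = 0.000913). ZNF512B was at 3.17, 3.47 and 3.14 FPKM in NC and 2.57, 2.81 and 2.58 FPKM in RBM47-OE (log2 fold change -0.37 ± 0.09 (SE), adjusted p = 0.00338). ZNF335, a component of histone methyltransferase complexes, was at 3.43, 4.06 and 3.72 FPKM in NC and 2.96, 3.56 and 2.79 FPKM in RBM47-OE (log2 fold change -0.34 ± 0.09 (SE), adjusted p = 0.00614). ZNF488, a transcriptional repressor of the oligodendrocyte lineage, was at 1.7, 1.49 and 1.48 FPKM in NC and 1.21, 1 and 1.37 FPKM in RBM47-OE (log2 fold change -0.45 ± 0.15 (SE), adjusted p = 0.0228). In normalised CPM the groups of these 4 members did not overlap, while in FPKM those of ZNF335 did. None of the 4 passed with the GC offset, where the log2 fold changes lay between -0.29 and -0.15. ZNF512, the paralogue of ZNF512B, went the other way, at 5.95, 6.24 and 6.16 FPKM in NC and 7.83, 9.5 and 8.7 FPKM in RBM47-OE (log2 fold change 0.43 ± 0.08 (SE), adjusted p = 0.000359). It passed with the offset (0.31 ± 0.07, adjusted p = 0.00338), though 32.0% of its transcript pieces also occur in other transcripts. The exonic GC contents of the 2 paralogues were 62.6% for ZNF512B and 44.6% for ZNF512.

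Of the 46 genes listed by a known role, 43 were members, with 11 called higher (25.6%, beside 19.1% of all genes tested) and 11 lower (25.6%, beside 16.9%). With the GC offset 4 were called higher and 4 lower, beside 6.0% and 8.46% of all genes tested. The single groups hold 2 to 9 members each, so their counts, here and below, say little about a role. Among the factors of ribosomes, RNA and splicing, 2 of 9 rose (22.2%, beside 19.1% of all genes tested). In the same group 3 fell (33.3%, beside 16.9%), namely ZNF385A, ZNF593 and ZNF598 (above). ZNF638, a nuclear matrix protein that silences unintegrated viral DNA and affects splicing, was at 3.66, 3.46 and 3.77 FPKM in NC and 3.85, 5.33 and 5.56 FPKM in RBM47-OE (log2 fold change 0.36 ± 0.09 (SE), adjusted p = 0.00406). RBM47-OE replicate 1 lay nearest to NC, and the groups overlapped in CPM though not in FPKM. ZNF106, an RNA-binding protein of the splicing machinery, was at 3.94, 4.15 and 4.02 FPKM in NC and 4.68, 5.65 and 4.9 FPKM in RBM47-OE (log2 fold change 0.26 ± 0.08 (SE), adjusted p = 0.00899). Neither passed with the GC offset. ZNF622, which acts late in large subunit maturation, was at 20.26, 21.46 and 20.95 FPKM in NC and 18.58, 19.05 and 21.16 FPKM in RBM47-OE (log2 fold change -0.16 ± 0.08 (SE), adjusted p = 0.119). The other 3 uncalled members, ZNF346, ZNF326 and ZNF830, had log2 fold changes between 0.01 and 0.20.

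Of the 6 promoter-binding activators among the members 3 rose (50.0%, beside 19.1% of all genes tested). ZNF148 and ZNF281, paired relatives that bind GC-rich promoter elements, both rose. ZNF148 was at 2.27, 1.88 and 2.06 FPKM in NC and 2.71, 3.75 and 3.29 FPKM in RBM47-OE (log2 fold change 0.58 ± 0.10 (SE), adjusted p = 0.000145). ZNF281 was at 4.79, 4.85 and 4.94 FPKM in NC and 5.14, 7.53 and 6.24 FPKM in RBM47-OE (log2 fold change 0.30 ± 0.10 (SE), adjusted p = 0.0192). ZNF143, which drives snRNA and many housekeeping promoters, was at 4.31, 3.82 and 3.99 FPKM in NC and 4.59, 6.18 and 5.79 FPKM in RBM47-OE (log2 fold change 0.38 ± 0.10 (SE), adjusted p = 0.00515). RBM47-OE lay above NC in all 3 genes, and only ZNF148 of these 3 passed with the offset (0.23 ± 0.08, adjusted p = 0.0447). ZNF76, the paralogue of ZNF143, was at 4, 4.02 and 3.94 FPKM in NC and 3.85, 3.77 and 3.56 FPKM in RBM47-OE (log2 fold change -0.17 ± 0.08 (SE), adjusted p = 0.124). With the offset its log2 fold change was 0.00. ZNF384 and ZNF362 did not pass, at log2 fold changes of -0.15 and 0.14.

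Among partners of the corepressors CtBP and CoREST and the methyltransferase G9a, 2 of 4 rose (50.0%, beside 19.1% of all genes tested). ZNF217, an oncogene of the 20q13 amplicon, was at 4.57, 5.49 and 5.66 FPKM in NC and 6.63, 8.08 and 6.75 FPKM in RBM47-OE (log2 fold change 0.38 ± 0.09 (SE), adjusted p = 0.00195). ZNF644, which directs G9a to chromatin, was at 3.28, 2.94 and 2.98 FPKM in NC and 3.4, 4.54 and 4.76 FPKM in RBM47-OE (log2 fold change 0.39 ± 0.10 (SE), adjusted p = 0.0037). ZNF516 was at 3.65, 3.58 and 3.87 FPKM in NC and 4.15, 4.59 and 4.1 FPKM in RBM47-OE, and did not pass (log2 fold change 0.14 ± 0.08 (SE), adjusted p = 0.186). It passed with the GC offset (0.28 ± 0.07, adjusted p = 0.00737), which ended the calls of ZNF217 and ZNF644 (adjusted p = 0.0537 and 0.715). ZNF219 had a log2 fold change of -0.09. Of the 3 partners of ZMYND8, ZNF687 fell, at 7.72, 7.23 and 7.76 FPKM in NC and 6.67, 6.65 and 6.26 FPKM in RBM47-OE (log2 fold change -0.28 ± 0.08 (SE), adjusted p = 0.00502). It did not pass with the offset, and ZNF592 and ZNF532 were at -0.11 and 0.02 on the log2 scale. The NuRD-binding ZNF827 and ZNF423 did not pass, at 0.06 and -0.29, the latter on 15 counts or fewer per library.

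**Figure D5:**
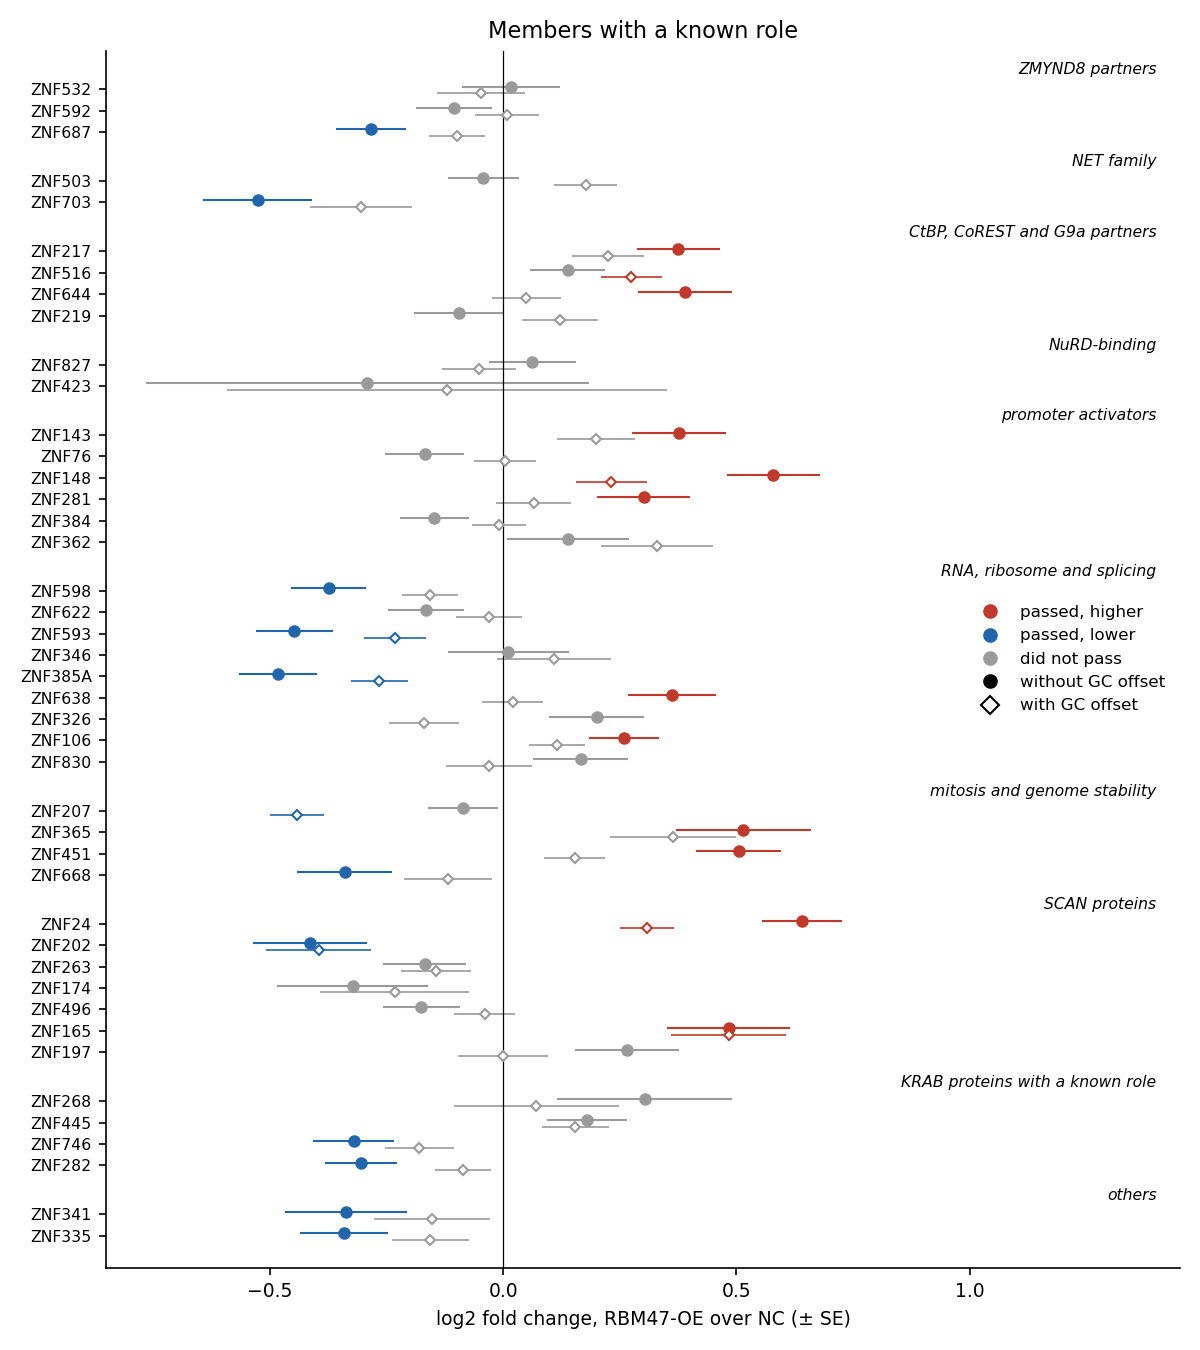
Log2 fold change (x axis, RBM47-OE over NC, bars ± SE from edgeR) of the 43 members with a known role (y axis, by role), without the GC offset (circles) and with it (diamonds), coloured by adjusted p under 0.05 in that fit. Most filled circles in colour turn to grey diamonds nearer 0, while ZNF207 moves from -0.09 to -0.44 and becomes a call.

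In the group of mitosis and genome stability 2 of 4 rose (50.0%, beside 19.1% of all genes tested) and 1 fell (25.0%, beside 16.9%). ZNF451, a SUMO ligase, was at 1.73, 1.64 and 1.74 FPKM in NC and 2.09, 2.83 and 2.71 FPKM in RBM47-OE (log2 fold change 0.50 ± 0.09 (SE), adjusted p = 0.000231). ZNF365, which guards fragile sites and telomeres, was at 0.75, 0.74 and 0.74 FPKM in NC and 1.01, 1.16 and 1.17 FPKM in RBM47-OE (log2 fold change 0.51 ± 0.14 (SE), adjusted p = 0.00694). ZNF668, a protein of the DNA damage response, was at 4.5, 4.7 and 4.64 FPKM in NC and 3.81, 3.44 and 4.25 FPKM in RBM47-OE (log2 fold change -0.34 ± 0.10 (SE), adjusted p = 0.0108). None of these 3 passed with the offset, and ZNF365 and ZNF668 share 23.9% and 51.7% of their transcript pieces with other genes. ZNF207, or BuGZ, which loads BUB3 onto kinetochores, was at 4.33, 3.89 and 4.26 FPKM in NC and 3.74, 4.21 and 4.4 FPKM in RBM47-OE, with overlapping groups and no call (log2 fold change -0.09 ± 0.08 (SE), adjusted p = 0.4). Its exonic GC content of 36.6% belongs to the quartile in which 26 of 55 members were called higher, and with the offset it was called lower (-0.44 ± 0.06, adjusted p = 5.61e-05). ZNF695, a KRAB protein, was the member with the lowest log2 fold change among those called with the offset (-0.54 ± 0.13, adjusted p = 0.00797). It was at 1.69, 2.01 and 1.6 FPKM in NC and 1.52, 1.71 and 1.43 FPKM in RBM47-OE, and without the offset it did not pass (log2 fold change -0.26 ± 0.13 (SE), adjusted p = 0.141).

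Of 7 listed SCAN proteins 2 rose (28.6%, beside 19.1% of all genes tested) and 1 fell (14.3%, beside 16.9%), ZNF202 (above). ZNF24, a SCAN protein needed for myelination, was at 6.04, 5.86 and 5.78 FPKM in NC and 7.93, 10.63 and 10.45 FPKM in RBM47-OE (log2 fold change 0.64 ± 0.08 (SE), adjusted p = 2.31e-05). It passed with the offset at a smaller size (0.31 ± 0.06, adjusted p = 0.00124). ZNF165, a cancer-testis antigen, was at 2.26, 2.47 and 2.17 FPKM in NC and 2.99, 4.07 and 3.11 FPKM in RBM47-OE (log2 fold change 0.48 ± 0.13 (SE), adjusted p = 0.00604). The size was the same with the offset (0.48 ± 0.12, adjusted p = 0.0113). In both, all RBM47-OE libraries were above NC, with replicate 1 the lowest of the 3. The uncalled ZNF263, ZNF174, ZNF496 and ZNF197 ran from -0.32 to 0.27 on the log2 scale.

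Of the 4 listed KRAB repressors that were members, 2 fell (50.0%, beside 16.9% of all genes tested). ZNF282, which binds the HTLV-1 long terminal repeat, was at 11.52, 11.93 and 12.3 FPKM in NC and 10.28, 10.6 and 9.52 FPKM in RBM47-OE (log2 fold change -0.31 ± 0.08 (SE), adjusted p = 0.0032). ZNF746, or PARIS, the Parkin substrate that represses PGC-1alpha, was at 3.16, 3.42 and 3.45 FPKM in NC and 2.81, 2.65 and 2.97 FPKM in RBM47-OE (log2 fold change -0.32 ± 0.09 (SE), adjusted p = 0.00573). ZNF268 and ZNF445, the latter a regulator of imprinting, did not pass, at 0.30 and 0.18 on the log2 scale. Both listed members of the remaining group, ZNF335 (above) and ZNF341, fell. ZNF341, which drives STAT3 transcription, was at 1.38, 1.15 and 1.23 FPKM in NC and 1.01, 1.08 and 1.03 FPKM in RBM47-OE (log2 fold change -0.34 ± 0.13 (SE), adjusted p = 0.0457). None of ZNF282, ZNF746 and ZNF341 passed with the GC offset.

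ZNF768 and ZNF622 completed the 5 members of highest level beside ZNF593, ZNF503 and ZNF664. ZNF768 was at 21.48, 25.13 and 22 FPKM in NC and 21.53, 20.96 and 18.78 FPKM in RBM47-OE (log2 fold change -0.23 ± 0.08 (SE), adjusted p = 0.0242). Its groups overlapped in FPKM though not in CPM. With the offset its log2 fold change was -0.02. The median of the mean FPKM over all members was 1.88 (range 0.035 to 47.5), and 61 of 218 were below 1 FPKM. By quartile of mean FPKM from low to high, 10, 10, 17 and 15 members were higher and 0, 3, 5 and 11 lower, and the median exonic GC rose from 43.2% to 53.1%, so level and composition went together. Under the GC offset the same quartiles held 2, 0, 13 and 9 higher and 0, 2, 0 and 4 lower members. For the zeros of that edgeR fit, an unadjusted p under 0.05 gave 5 higher in the second quartile, 2 lower in the first and 4 lower in the third. In the quartile with 0 lower without the offset, edgeR at an unadjusted p under 0.05 gave 2 and DESeq2 gave 0.

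A KRAB box was found by pattern in 81 of 217 members with a coding canonical transcript, of which 18 rose and 2 fell, with a median log2 fold change of 0.22. Of 136 without it 34 rose and 17 fell, with a median of 0.06. The shares were 22.2% higher and 2.47% lower with the box and 25.0% and 12.5% without it. Over all protein-coding genes tested they were 22.6% and 19.4%. The KRAB members had a median exonic GC of 44.01%, against 48.4% in the others, and the GC offset brought the medians to 0.10 and 0.05, with 7 and 17 higher. Within the lowest GC quartile the KRAB members had a median of 0.28 (7 of 24 higher) and the others of 0.38 (19 of 30 higher), and within the second quartile 0.33 (10 of 26) and 0.28 (12 of 28). Within the third quartile the medians were 0.13 (1 of 18 higher, 1 lower) and 0.01 (3 of 36 higher, 1 lower). Within the fourth they were -0.20 (1 of 13 lower) and -0.21 (16 of 42 lower, 2 with the GC offset). The KRAB members thus had the lower median in the first quartile and the higher one in the others, by little in the fourth. No test of it was made. KRAB members also had a lower median of mean FPKM, 1.26 against 2.59. The pattern needs 7 of 9 fixed residues and misses divergent boxes such as that of ZNF282. SCAN domains were found in 21 members, of which 6 (28.6%) rose and 1 (4.76%) fell (3 and 1 with the GC offset). By number of fingers, 12 of 52 members with 0 to 4 were higher and 8 lower, 19 and 3 of 74 with 5 to 9, 13 and 5 of 63 with 10 to 14, and 8 and 3 of 28 with 15 or more. The shares higher were 23.1%, 25.7%, 20.6% and 28.6%, near the 22.6% of protein-coding genes tested. Those lower were 15.4%, 4.05%, 7.94% and 10.7%, beside 19.4%. The classes also differed in median exonic GC (50.6%, 45.8%, 46.2% and 43.3%) and in median of mean FPKM (3.02, 2.085, 1.46 and 1.335). With the GC offset the same classes held 6, 6, 9 and 3 higher and 4, 2, 0 and 0 lower members, and for the 2 zeros edgeR at an unadjusted p under 0.05 gave 0 and 1 lower. The 2 with the most fingers by the pattern were ZNF142 with 36, and ZNF462 with 33. ZNF142 fell, at 2.51, 2.47 and 2.38 FPKM in NC and 2.17, 2.29 and 1.95 FPKM in RBM47-OE (log2 fold change -0.27 ± 0.09 (SE), adjusted p = 0.0152), and ZNF462 did not pass (log2 fold change 0.01 ± 0.11 (SE), adjusted p = 0.962). With the GC offset ZNF142 did not pass either (-0.12 ± 0.07, adjusted p = 0.27), and 20.9% of its exon bases are also exon on the other strand.

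By chromosome, members were most frequent on chromosome 16 (30) and chromosome 7 (26). Of all genes tested 19.1% were called higher and 16.9% lower (6.0% and 8.46% with the GC offset). On chromosome 16, 3 rose and 4 fell, at a median exonic GC of 57.5%. There edgeR with the GC offset gave 0 and 0 (3 and 1 at an unadjusted p under 0.05). On chromosome 6, 6 of 8 rose and 0 fell, at a median GC of 42.8%. DESeq2 and edgeR at an unadjusted p under 0.05 also gave 0 lower there. With the offset 3 of these 8 were called higher and 0 lower (6 and 0 at an unadjusted p under 0.05 in that edgeR fit). Their median log2 fold change was 0.49 without and 0.30 with the offset. Among only 8 members a count of 0 lower says little. On chromosome 10, 7 of 16 rose and 2 fell, and with the offset 0 were called in either direction (4 higher and 0 lower at an unadjusted p under 0.05 in that edgeR fit). Within neighbouring groups, where starts lie at most 500 kb apart, 3 of the 4 genes from ZNF248 to ZNF37A (chr10:37776526-38150293) rose, with a median of 0.43 at 40.1% GC. With the offset 0 of the 4 were called by edgeR, 1 was higher at an unadjusted p under 0.05, and the median was 0.18. The 13 genes from ZNF48 to ZNF267 on chr16:30378106-31917357 gave 1 higher and 3 lower at 57.8% GC, and in edgeR with the offset 0 and 0, also at an unadjusted p under 0.05. The 10 from ZNF786 to ZNF862 on chr7:149069641-149867479 gave 0 higher and 2 lower at 56.2% GC. Of these 10, 0 were also higher by DESeq2 and by edgeR at an unadjusted p under 0.05. With the offset 1 (ZNF467) was called higher and 0 lower, with 1 lower at an unadjusted p under 0.05. The 6 genes from ZNF680 to ZNF92 on chr7:64519878-65401136, at 35.7% GC, had a median of 0.15 with no call in edgeR or DESeq2 and none at an unadjusted p under 0.05, and with the offset their median was -0.21.

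Shared sequence touched 33 members, in which over 20% of exon bases or of transcript pieces belong to another gene as well. Of the other 185 members 41 rose and 15 fell, with a median log2 fold change of 0.14 and exonic GC of 45.8%.

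The partners of KRAB proteins were set beside them from a list of 31 genes. TRIM28, the corepressor bound by the KRAB box, was at 181.95, 189.66 and 190.53 FPKM in NC and 150.99, 133.46 and 137.8 FPKM in RBM47-OE (log2 fold change -0.48 ± 0.08, adjusted p = 6.57e-05). It fell in all 3 libraries and also with the GC offset (-0.26 ± 0.06, adjusted p = 0.00524). MORC2, an ATPase of the HUSH silencing pathway, was at 2.84, 3.13 and 2.79 FPKM in NC and 2.19, 2.64 and 2.59 FPKM in RBM47-OE (log2 fold change -0.31 ± 0.09, adjusted p = 0.00645). It passed with the offset (-0.28 ± 0.07, adjusted p = 0.0146). CBX5, or HP1alpha, rose from 8.79, 8.66 and 8.68 FPKM to 10.18, 12.29 and 12.05 FPKM (log2 fold change 0.33 ± 0.07, adjusted p = 0.00114), a call that the offset ended (0.08 ± 0.05, adjusted p = 0.384). SETDB1 did not pass (log2 fold change -0.05 ± 0.08, adjusted p = 0.702). Of all 31 partners 11 rose (35.5%, beside 19.1% of all genes tested) and 6 fell (19.4%, beside 16.9%), with a median of 0.12. With the offset 1 rose and 4 fell, with a median of 0.00, where 6.0% and 8.46% of all genes tested did so. None passed the study thresholds in either direction.

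The 157 ZNF genes on chromosome 19 that meet the same count rule gave 36 higher (22.9%) and 10 lower (6.37%). Their median log2 fold change was 0.20 at a median exonic GC of 43.8%. The fit with the offset gave 12 higher and 4 lower of these 157, beside 24 and 6 of the 218 members. Of all genes tested 6.0% and 8.46% were called in that fit. The median with the offset was 0.08, the same to 2 decimals as that of the members. Among other C2H2 symbols with the same count rule, 13 of 39 ZBTB genes were higher and 3 lower, and 5 of 14 ZSCAN, 2 of 6 ZKSCAN and 5 of 11 ZFP genes were higher with 0 lower, medians lying between 0.11 and 0.28. The fit with the offset gave 2 ZBTB, 4 ZSCAN, 1 ZKSCAN and 1 ZFP genes higher and 1 ZBTB gene lower, and the medians then lay between 0.06 and 0.18. For the classes with 0 lower, edgeR at an unadjusted p under 0.05 (with or without the offset) and DESeq2 likewise gave 0.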

How the data were processed

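Poly(A) RNA of 3 NC and 3 RBM47-OE libraries of HCT116 cells was compared. The authors trimmed reads with FASTX-Toolkit, used HISAT2 for alignment to GRCh38, and deposited an unnormalized count of uniquely mapped reads for each gene. They also deposited FPKM, which come rounded. The annotation release, counting tool and strand setting are not given in the sources used here, and the library kit and vector named in the labels differ from those in the methods.

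Counts were tested in R 4.3.3 with edgeR 4.0.16 (filterByExpr with a minimum count of 10 and a minimum total of 15, TMM factors, quasi-likelihood test, condition as the only term, Benjamini-Hochberg adjustment over all 16260 genes tested). Each standard error was taken from the log2 fold change and the F statistic, as |log2 fold change|/√F. The GC offset was a loess curve (span 0.3) on exonic GC, drawn for every library through its log2 deviations from the across-library mean. CPM were TMM-normalized. No exact permutation test of a single gene was used, since 3 against 3 libraries cannot go below 0.10. Scripts were tested on simulated data.

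Coordinates, exon overlap and GC content came from GENCODE release 44 on GRCh38, matched by gene identifier for all 218 members. Coding sequences of its canonical transcripts were translated to count fingers (a cysteine pair and a histidine pair at C2H2 spacing) and to find KRAB boxes (7 of 9 fixed residues) and SCAN domains (8 of 11). Transcripts were cut into 100-base pieces every 10 bases and searched in the transcripts of all other genes. Promoter GC came from RefSeq, and 179 members had an entry.

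Named members were the 8 that rose most and the 8 that fell most (adjusted p under 0.05, a mean log2 CPM not below 0, and groups that do not overlap), the 5 with the highest FPKM, a list of members with a known role, the 2 highest and 2 lowest among the calls with the GC offset, and the 2 with the most fingers. Of the genes of physical clusters, 4 clusters were described and the rest tabulated only. Members and lists were chosen with earlier results of these data known. Alternatives were RLE factors, library totals, other filters, DESeq2 1.42.0, limma 3.58.1 on log2(FPKM + 1) and log2(FPKM + 0.1), the replicate number as a block, GC and length offsets, and each library left out.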

Additional observations from a re-analysis of the deposited data

How the results depend on the processing

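With all libraries and no offset, 52 members were called higher and 19 lower, 11 and 0 passed the study's thresholds, and the median log2 fold change was 0.14. RLE factors, the filter of 10 counts in every library and no filter stayed within 1.5 times of these counts, and DESeq2 gave 51 higher, 18 lower, and 10 and 0 at the study's thresholds. DESeq2 ended the calls of ZNF502 and ZNF341 among the genes described. Library totals gave 11 lower, with a median of all genes at 0.06. Limma on log2(FPKM + 1) gave 7 lower and 2 higher at the study's thresholds, and on log2(FPKM + 0.1) 7 lower. Without a filter, limma on log2(FPKM + 1) gave 15 higher, 4 lower and 2 at the study's higher threshold. The length offset gave 43 higher and 25 lower. The GC offset gave 24 higher, 6 lower and 2 higher at the study's thresholds, with a median of 0.08.

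The replicate number as a block gave 52 higher, 18 lower, 12 and 0 at the study's thresholds and a median of 0.14. The block ended the call of ZNF341 among the named genes. The GC offset and the replicate block together gave 30 higher, 7 lower and 2 at the study's higher threshold. Libraries of the same number had residual correlations of -0.06, -0.01 and -0.02, so the numbers were not taken to pair them.

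Leaving out each library in turn gave 32 to 73 members higher, 12 to 24 lower, 5 to 18 higher and 0 to 1 lower at the study's thresholds, and a median of 0.08 to 0.19. Without RBM47-OE replicate 2, 32 were higher and 5 passed the study's higher threshold, without RBM47-OE replicate 1 the latter were 18, without NC replicate 2 there were 12 lower, and without RBM47-OE replicate 3 a single member passed the study's lower threshold. Alternatives chosen after seeing the data were the GC offset with each library left out and the removal of members sharing over 20% of their sequence. The first gave 11 to 25 higher, 2 to 8 lower, 2 and 0 to 2 at the study's thresholds, and a median of 0.025 (without RBM47-OE replicate 2) to 0.10. The second left 185 members, of which 41 were higher and 15 lower.

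Only a part of the genes described was followed through every setting, and of these the log2 fold changes of 10 turned direction in at least one. Genes described but not followed in this way could turn too. With the GC offset ZNF219 went from -0.09 to 0.12, ZNF326 from 0.20 to -0.17 and ZNF280B from 0.25 to -0.03. ZNF532 went from 0.02 to -0.05 and ZNF592 from -0.11 to 0.01. ZNF503 stood at 0.018 with library totals, at 0.024 in the limma fit of log2(FPKM + 1), filtered or not, at 0.025 on log2(FPKM + 0.1), at 0.18 with the GC offset, at 0.17 with the block added, and at -0.094 to 0.25 with a library left out. SETDB1 stood at 0.015 with library totals, at 0.021 in the limma fits of log2(FPKM + 1) and 0.025 in that of log2(FPKM + 0.1), and at -0.095 to 0.0046 with a library left out. ZNF76 was at 0.0040 with the GC offset, at 0.0038 with the block added, and at -0.20 to 0.0087 with a library left out. ZNF462 was at -0.058 with the GC offset, at -0.061 with the block added, at -0.12 with the length offset, and at -0.17 to 0.10 with a library left out. With a library left out, with or without the GC offset, ZNF768 ranged from -0.29 to 0.049, ZNF638 from -0.035 to 0.51, ZNF622 from -0.22 to 0.015, ZNF281 from -0.040 to 0.42, ZNF280C from -0.088 to 0.49 and ZNF518B from -0.0083 to 0.47. The cause of these changes was not tested. Members with few counts limit what the test could show, and a change not called is not shown to be absent.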

Other observations

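Of the members, 9 were called only with the GC offset, ZNF516, ZNF207 and ZNF695 (above) among them. The 6 higher ones (ZNF185, ZNF251, ZNF467, ZNF516, ZNF697 and ZNF7) had exonic GC contents of 50.6% to 66.5%, and the 3 lower ones (ZNF207, ZNF695 and ZNF706) of 36.6% to 41.6%. ZNF467 went from a log2 fold change of 0.19 ± 0.12 (SE; edgeR, adjusted p = 0.222) to 0.41 ± 0.10 with the offset (adjusted p = 0.0111), and its groups overlapped in CPM. ZNF706, the smallest member of these 9 with 76 residues, went from -0.09 ± 0.08 (adjusted p = 0.407) to -0.32 ± 0.07 (adjusted p = 0.00513). ZNF131 was called in both fits, at 0.55 ± 0.10 (adjusted p = 0.000262) and 0.41 ± 0.09 with the offset (adjusted p = 0.00288). These 3 genes were chosen after their values were seen.

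Values of some lettered paralogues follow, chosen after their values were seen and with no test of likeness. ZNF33A and ZNF33B rose by 0.42 ± 0.10 and 0.36 ± 0.12 on the log2 scale (edgeR, adjusted p = 0.00227 and 0.0182), at exonic GC contents of 39.9% and 40.8%. ZNF518A and ZNF518B rose by 0.50 ± 0.10 and 0.35 ± 0.09 (adjusted p = 0.000367 and 0.00447), at 37.6% and 40.2%. ZNF280C and ZNF280D rose by 0.36 ± 0.12 and 0.48 ± 0.12 (adjusted p = 0.0202 and 0.00279), at 38.2% and 35.3%, though the groups of ZNF280C overlapped. Their relatives ZNF280A and ZNF280B did not pass, at 0.33 ± 0.30 and 0.25 ± 0.12 (adjusted p = 0.429 and 0.108), at 44.7% and 40.4%. ZNF354A was called higher at 0.50 ± 0.13 (adjusted p = 0.0046), also with the offset, while ZNF354B did not pass at 0.35 ± 0.24 (adjusted p = 0.264), at 44.5% and 43.1%. The difference between them was not tested. None of the 6 genes of the first 3 pairs passed with the GC offset, and less than 2% of the transcript pieces of the first 4 were shared with another gene. Of the pieces of ZNF280D 47.7% were shared.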
